A study of Mus musculus with 15 samples.

Results

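Genes of the extracellular matrix and its receptors were followed in differentiating mouse embryonic stem cells: collagens, laminins, integrins, fibronectin, SPARC, nidogens, perlecan, the Fraser complex, fibrillins and 3 matrix proteins named by symbol, periostin, lumican and decorin. They were chosen by gene symbol alone, which gave 95 of the 24451 genes in the count table. Of these, 77 passed the filter on low counts and were tested, and 18 did not. The cells were of the ES-R1 line at fewer than 20 passages, labelled as derived from the inner cell mass. They were grown without serum, on N2 and B27 supplements, and all libraries were profiled by RNA-seq at day 4 of differentiation. There were 5 groups of 3 libraries. Vprbp siRNA cells were given Activin A at 25 ng/ml, control siRNA cells were given Activin A at 25 ng/ml, control siRNA cells were given the inhibitor SB, Vprbp siRNA cells had neither agent, and control siRNA cells had neither agent. SB stands for the compound that the study's design text calls SB431542, an inhibitor of the Activin and Nodal type I receptors; the sample titles spell it differently, and its dose is not stated in the labels. No group combined Vprbp siRNA with SB. The labels do not say that the libraries of a group came from separate cultures, so every p-value reflects spread among these libraries alone, which may be technical.

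The extracellular matrix is the protein network that cells secrete and stand on. Its sheet-like form, the basement membrane, is built from laminin trimers of 1 alpha, 1 beta and 1 gamma chain and from a collagen IV network, joined by nidogens and the proteoglycan perlecan (Hspg2); the early embryo depends on it for the organization of its first epithelia. Fibronectin (Fn1) and the fibrillins assemble into fibres outside basement membranes, SPARC binds collagens, and Fras1, Frem1 and Frem2 form the Fraser complex, which anchors epithelia to the tissue beneath. Cells hold this matrix through integrins, each a pair of an alpha and a beta subunit. Activin and its relative Nodal act through shared type I receptors and SMAD2 and SMAD3. Vprbp, also known as Dcaf1, is a substrate receptor of a cullin-RING ubiquitin ligase.

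Counts per gene summed to between 11146183 and 15527245 per library, and levels are given as CPM, the counts scaled to a common library size. The limit that a count of 0 allows was 0.193 to 0.269 CPM, depending on the library, and covers counting error only. Vprbp itself was lower in the Vprbp siRNA cells by 0.37 on the log2 scale with Activin (SE 0.06, adjusted p = 0.0374) and by 0.49 without it (SE 0.06, adjusted p = 0.00205). Lefty1, a target of Nodal and Activin signalling, had 1.38 to 1.81 CPM in the SB libraries, against 38.1 to 105 CPM in control siRNA libraries. The summed level of 6 stem cell markers lay between 1820 and 2060 CPM with SB, against 2940 to 3440 CPM in control siRNA cells. Of the 6, 5 passed the test as lower with SB, where 11.3% of all genes tested did. The genes followed here took 0.913% ± 0.037 of all counts with SB, 0.755% ± 0.013 with Activin in control siRNA cells and 0.838% ± 0.058 in control siRNA cells (SD, n = 3 each). Replicate 3 of the Vprbp siRNA cells and replicate 3 of the control siRNA cells had shares of 0.890% and 0.899%, above the other replicates of their groups, and their Lefty1 levels of 56.1 and 38.1 CPM were the lowest of those groups. Replicate 1 of the Vprbp siRNA cells with Activin had the lowest share of all 15 libraries, 0.712%. Calls of named genes that were lost or gained without these 3 libraries are given beside them.

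Relative to exon length, fibronectin was the most abundant of the genes, with a mean of 252 CPM per kilobase over the 15 libraries. Lamc1, the gamma chain of most laminins, followed at 116 CPM per kilobase, then Nid2 at 111, Col18a1 (the collagen XVIII core of a basement membrane proteoglycan) at 109, Sparc at 95.4 and Itgb1, the beta subunit shared by most integrins, at 93.3. In control siRNA libraries the ranges of Nid2 (102 to 116), Col18a1 (99.0 to 108) and Sparc (97.2 to 105) overlapped, so their order is not set by these data, whereas Fn1 (240.5 to 324) lay apart. Among the alpha subunits in control siRNA libraries, Itga6 (60.1 to 65.6) was highest, and Itga5 (36.9 to 53.4) and Itga3 (38.3 to 41.6) overlapped. Itgav (9.99 to 10.1) lay below these, and Itga9 (3.84 to 4.41) and the other alpha subunits lay lower still. With SB the order differed, with Itga3 (59.2 to 70.9) above Itga6 (42.8 to 48.9). The fibrillar collagen Col1a1 ranked below the 20 highest. The genes not tested were Col10a1, Col14a1, Col15a1, Col19a1, Col28a1, Col4a3, Col4a4, Col4a6, Col6a3, Col8a1, Col9a1, Frem3, Itga2, Itgad, Itgax, Itgb6, Lum and Postn, and none of them exceeded 1.36 CPM in any library.

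**Figure D1:**
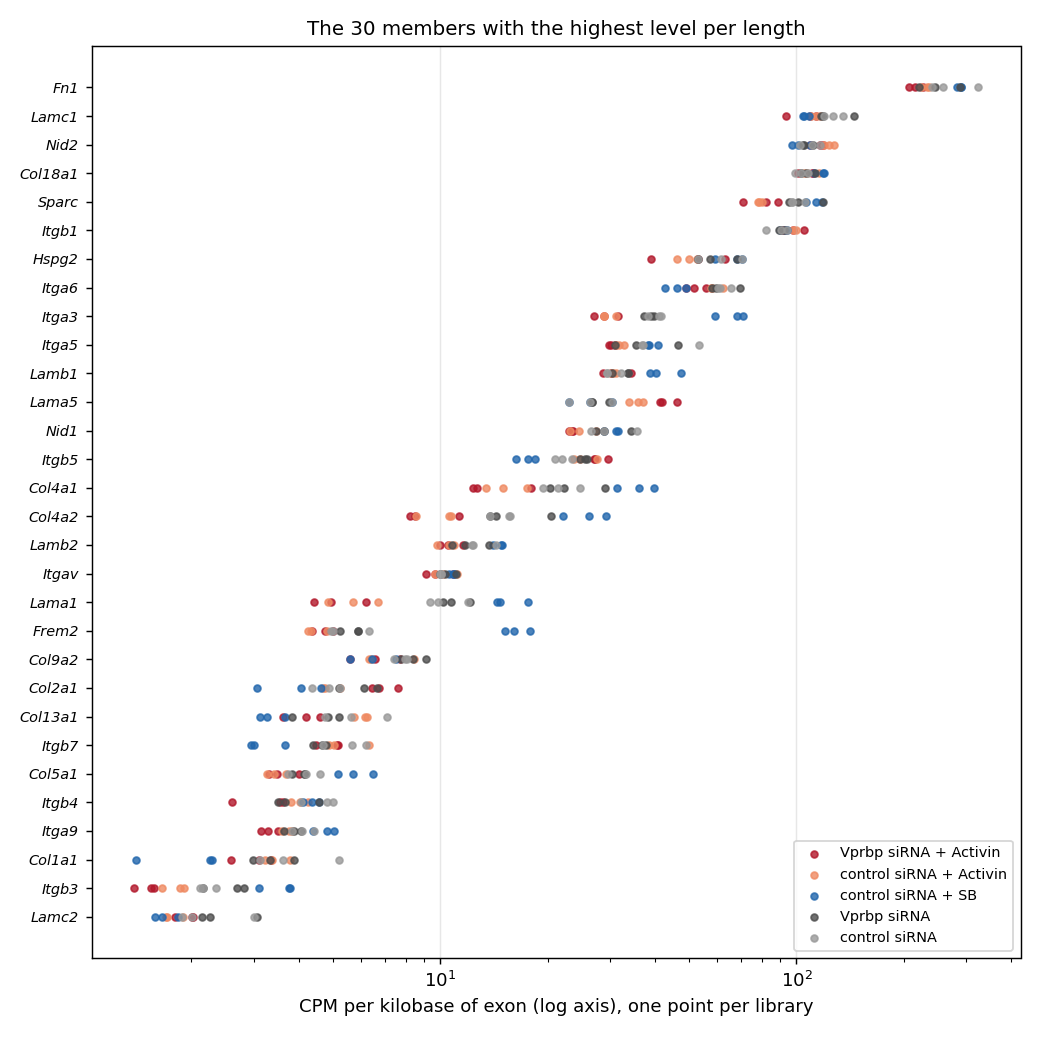
Level of the 30 most abundant matrix and integrin genes in CPM per kilobase of exon (log axis), 1 point per library, coloured by group. Fn1 lies apart from the rest at a mean of 252, and the SB libraries lie to the right for Itga3, Col4a1, Col4a2, Lama1 and Frem2.

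A gene is called where the quasi-likelihood test of edgeR gave an adjusted p below 0.05, after Benjamini-Hochberg adjustment over all 14600 genes tested. SB changed the most genes against control siRNA cells: 22 of the 77 were higher and 11 lower, where 22.6% of all genes tested were called (11.2% higher and 11.3% lower). Activin in control siRNA cells gave 1 higher and 6 lower, where 4.83% of all genes were called (2.95% higher and 1.88% lower). Activin in Vprbp siRNA cells gave 2 higher and 12 lower, where 6.12% of all genes were called (3.65% higher and 2.47% lower). The median log2 fold change of the 77 was -0.23 with Activin in control siRNA cells, -0.17 with Activin in Vprbp siRNA cells and 0.10 with SB, against medians of all genes of -0.01, -0.01 and 0.00. In all, 52 of the 77 were called in at least 1 of the 6 pairwise comparisons. The same share was not counted over all genes, of which 38% were called with Activin against SB alone. The 52 are thus not shown to be more than other genes would give. The contrasts with Activin and with SB in control siRNA cells share their control libraries, so their values are given side by side and the relation between them was not tested. Total RNA was measured, so fewer cells of a type and less RNA per cell cannot be told apart in any of these results.

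**Figure D2:**
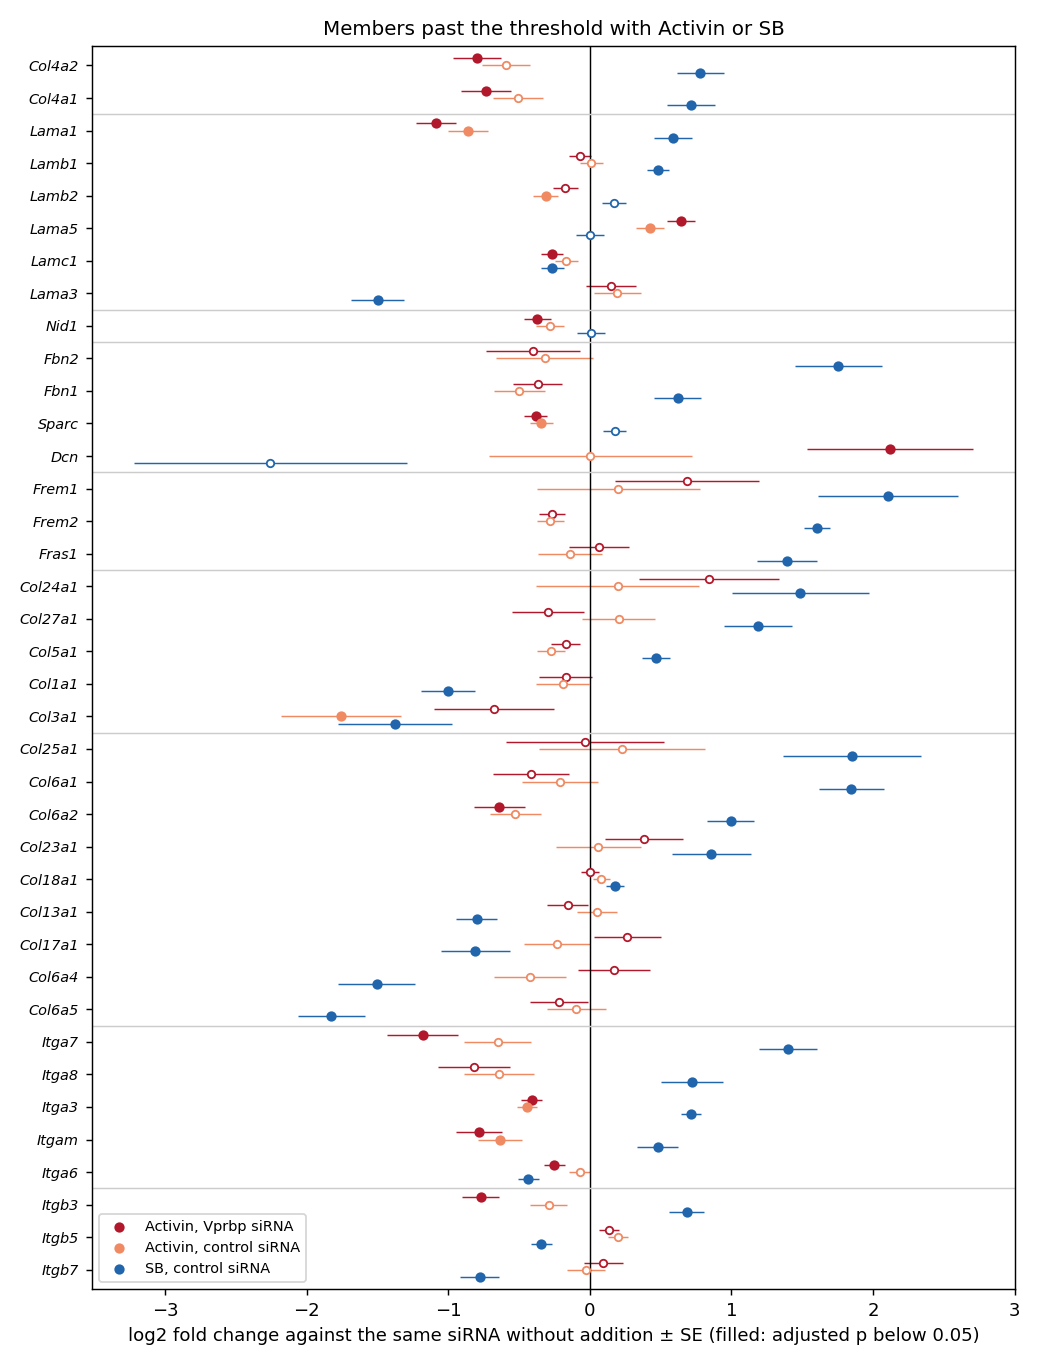
Log2 fold change with its standard error for the 38 matrix and integrin genes called with Activin in either siRNA background or with SB. Frem2, Fras1, Itga7 and Col6a1 lie far to the right with SB, and Lama1, Itga3 and Itgam lie on opposite sides of 0 with Activin and with SB.

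Of the 3 tested genes of collagen IV, the network-forming collagen of basement membranes, Col4a1 and Col4a2 were higher with SB and lower with Activin in Vprbp siRNA cells. Of all genes tested, 11.2% were higher with SB and 2.47% lower with Activin in Vprbp siRNA cells. Col4a5 was not called, at 0.09 with SB (SE 0.12) and -0.01 with Activin in Vprbp siRNA cells (SE 0.12). Col4a1 had 263, 239 and 208 CPM in the SB libraries, against 141, 163 and 128 CPM in control siRNA libraries. Its partner chain Col4a2 had 188, 169 and 142 CPM with SB, against 101, 100.3 and 89.0 CPM in control siRNA cells. The SB libraries were all above the control libraries for both chains, and the log2 fold changes were 0.71 (SE 0.17, adjusted p = 0.0105) for Col4a1 and 0.78 (SE 0.16, adjusted p = 0.00431) for Col4a2. With Activin in Vprbp siRNA cells, Col4a1 had 119, 84.1 and 81.8 CPM, against 135, 147 and 192 CPM in Vprbp siRNA cells without it. There Col4a1 fell by 0.73 on the log2 scale (SE 0.18, adjusted p = 0.0305) and Col4a2 fell by 0.80 (SE 0.17, adjusted p = 0.0147). In control siRNA cells the values with Activin were -0.51 (SE 0.18, adjusted p = 0.124) for Col4a1 and -0.60 (SE 0.17, adjusted p = 0.0669) for Col4a2, which did not pass the test, although the Activin and control libraries did not overlap for either chain. Both chains were called there when only the groups compared were fitted (adjusted p = 0.0216 for Col4a1 and 0.00154 for Col4a2) and without the 3 libraries that lay apart (0.00702 and 0.000663), and Col4a2 also by DESeq2 (0.00293). In Vprbp siRNA cells the Col4a1 call was instead lost with only the groups compared, and also without a filter on low counts. It was lost too without Vprbp siRNA + Activin replicate 2 or 3 or without Vprbp siRNA replicate 3. Its adjusted p reached at most 0.131 over all alternatives. The Col4a2 call there was lost with only the groups compared and without Vprbp siRNA + Activin replicate 2, at most 0.0833.

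The pair is shown in sequence because Col4a1 and Col4a2 lie head to head and are read outward from 1 shared stretch. On GRCm38, Col4a1 spans chr8:11198423-11312889 on the minus strand and Col4a2 spans chr8:11312805-11449287 on the plus strand. The RefSeq windows, from 250 bases before to 50 bases after each start, are chr8:11312777-11313076 for Col4a1 and chr8:11312555-11312854 for Col4a2, each printed 5′ to 3′ on the strand of its gene. Capitals mark the 78 bases that both windows hold, each read on the opposite strand of the other.
Col4a1: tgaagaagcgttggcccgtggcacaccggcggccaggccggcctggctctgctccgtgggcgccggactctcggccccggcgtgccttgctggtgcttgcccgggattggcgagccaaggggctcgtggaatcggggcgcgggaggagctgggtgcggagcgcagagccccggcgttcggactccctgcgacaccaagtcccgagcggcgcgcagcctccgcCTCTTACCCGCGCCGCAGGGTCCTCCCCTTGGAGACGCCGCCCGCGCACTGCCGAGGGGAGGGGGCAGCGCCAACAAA
Col4a2: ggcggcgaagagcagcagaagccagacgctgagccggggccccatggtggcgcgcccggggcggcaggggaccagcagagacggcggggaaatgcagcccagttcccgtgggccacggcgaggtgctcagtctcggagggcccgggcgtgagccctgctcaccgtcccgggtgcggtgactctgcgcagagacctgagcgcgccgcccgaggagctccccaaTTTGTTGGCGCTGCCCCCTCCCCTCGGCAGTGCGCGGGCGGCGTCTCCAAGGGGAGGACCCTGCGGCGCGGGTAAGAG
The start sites used for these windows, chr8:11312826 for Col4a1 and chr8:11312805 for Col4a2, are 21 bases apart. The Col4a1 span given above reaches further, to 11312889, and the spans of both genes overlap. The letters CCAAT occur 1 time in each window on either strand, against 37.4% of 32851 promoter windows of this length that hold them. CAGAC, the short SMAD-binding letters, occurs 0 times in the Col4a1 window and 1 time in the Col4a2 window, and 49.6% of all windows hold it. GGGCGG, a GC-box core, occurs 1 time and 3 times, and 35.7% of all windows hold it. These matches describe letters in a window, not bound sites. Both chains moved together in level: per length, the ratio of Col4a1 to Col4a2 stayed between 1.36 and 1.64 in all 15 libraries. Of the 95 genes, 66 had a RefSeq promoter window.

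Among the laminins, the alpha chains moved apart. Lama1, the alpha chain of laminin-111 in the earliest embryonic basement membranes, had 54.2, 63.9 and 46.1 CPM with Activin in control siRNA cells, 168, 140.1 and 138 CPM with SB, and 93.9, 114 and 89.3 CPM in control siRNA cells. All Activin libraries were below, and all SB libraries above, every control library. Lama1 fell by 0.86 on the log2 scale with Activin (SE 0.14, adjusted p = 0.00335) and was 0.59 higher with SB (SE 0.14, adjusted p = 0.00608). With Vprbp siRNA it had 42.2, 46.9 and 59.0 CPM with Activin, against 102, 96.8 and 116 CPM without it, a fall by 1.09 (SE 0.14, adjusted p = 0.000451). These 3 calls held under every alternative run.

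Lama5, the alpha chain of laminin-511, a substrate used to culture pluripotent cells, went the other way with Activin. It had 473, 478 and 526 CPM with Activin in Vprbp siRNA cells, against 304, 338 and 303 CPM without it, a log2 fold change of 0.65 (SE 0.10, adjusted p = 0.000688) that held under every alternative run. In control siRNA cells it had 386, 421 and 409 CPM with Activin, against 262, 299.8 and 345 CPM without it, a log2 fold change of 0.42 (SE 0.10, adjusted p = 0.0196). That call was lost without control siRNA + Activin replicate 2 or 3 or without control siRNA replicate 1 or 2, with an adjusted p of at most 0.0882. With SB, Lama5 had 347, 299.6 and 261 CPM and its log2 fold change was 0.00 (SE 0.10, adjusted p = 0.997). Per length, the ratio of Lama5 to Lama1 was 8.46 ± 0.95 in Vprbp siRNA cells with Activin, 6.30 ± 0.99 in control siRNA cells with Activin, 1.70 ± 0.10 with SB, 2.53 ± 0.37 in Vprbp siRNA cells and 2.59 ± 0.56 in control siRNA cells (SD, n = 3 each). The ratio was 5.52 or more in every Activin library and 3.24 or less in every other library. With 3 libraries a group, an exact permutation test cannot give a p below 0.1, so no p is given for the ratio.

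Lama3, the alpha chain of the epithelial laminin-332, was lower with SB, at 3.71, 4.49 and 3.29 CPM, against 13.1, 10.4 and 8.91 CPM in control siRNA cells. It fell by 1.50 on the log2 scale (SE 0.19, adjusted p = 7.19e-06). The beta chain Lamb1 had 277, 236 and 227 CPM with SB, against 172, 188 and 172 CPM in control siRNA cells, and was 0.48 higher (SE 0.08, adjusted p = 0.000132). Lamc1, which pairs with it, fell by 0.27 (SE 0.08, adjusted p = 0.0194) with SB, at 794, 799 and 826 CPM against 908, 967 and 1031 CPM, so the SB libraries were lower for the gamma chain and higher for the beta chain. The Lamc1 call was lost without SB replicate 1 or 2 or control siRNA replicate 3, with an adjusted p of at most 0.069. With Activin, Lamb1 showed log2 fold changes near 0 in control siRNA cells (0.01, SE 0.08). Lamb2, the beta chain of later basement membranes, fell by 0.31 with Activin in control siRNA cells (SE 0.09, adjusted p = 0.044), a call lost without any 1 of the 3 Activin libraries or without control siRNA replicate 2 or 3, with an adjusted p of at most 0.207, and without the 3 libraries that lay apart (0.054). In Vprbp siRNA cells Lamc1 fell by 0.27 with Activin (SE 0.08, adjusted p = 0.0495), and that call was lost in 8 alternatives, among them without Vprbp siRNA + Activin replicate 1 or 2 or Vprbp siRNA replicate 1 or 3 and without the 3 libraries that lay apart, with an adjusted p of at most 0.566. Of the 11 laminin genes, all of which were tested, 2 were higher and 2 lower with SB (36.4%, where 22.6% of all genes were called), and 1 was higher and 2 lower with Activin in each siRNA background (where 4.83% of all genes were called in control siRNA cells and 6.12% in Vprbp siRNA cells).

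The linkers of the basement membrane gave few calls. Nid1, Nid2 and Hspg2 gave no call with SB, where 22.6% of all genes were called. Their log2 fold changes were 0.01 (SE 0.10), -0.10 (SE 0.06) and 0.10 (SE 0.16). Nid1 fell by 0.37 with Activin in Vprbp siRNA cells (SE 0.10, adjusted p = 0.0305), at 144, 139.6 and 142 CPM against 176, 166 and 208 CPM. This call was lost without any 1 of the 3 Vprbp siRNA + Activin libraries or without Vprbp siRNA replicate 1 or 3, with an adjusted p of at most 0.181. SPARC had 213, 218 and 213 CPM with Activin in control siRNA cells, against 265, 287 and 264 CPM without it, and fell by 0.34 (SE 0.08, adjusted p = 0.0199). In Vprbp siRNA cells it had 242, 223 and 192 CPM with Activin, against 259, 274 and 323 CPM without it, and fell by 0.38 (SE 0.08, adjusted p = 0.00676). The call in control siRNA cells was lost without any 1 Activin library or without control siRNA replicate 2, with an adjusted p of at most 0.0822. The call in Vprbp siRNA cells was lost without Vprbp siRNA replicate 3 and with only the groups compared, at most 0.0697. With SB, Sparc had 309, 322 and 290.2 CPM, above every control library, but its log2 fold change of 0.17 (SE 0.08, adjusted p = 0.135) did not pass the test.

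**Figure D3:**
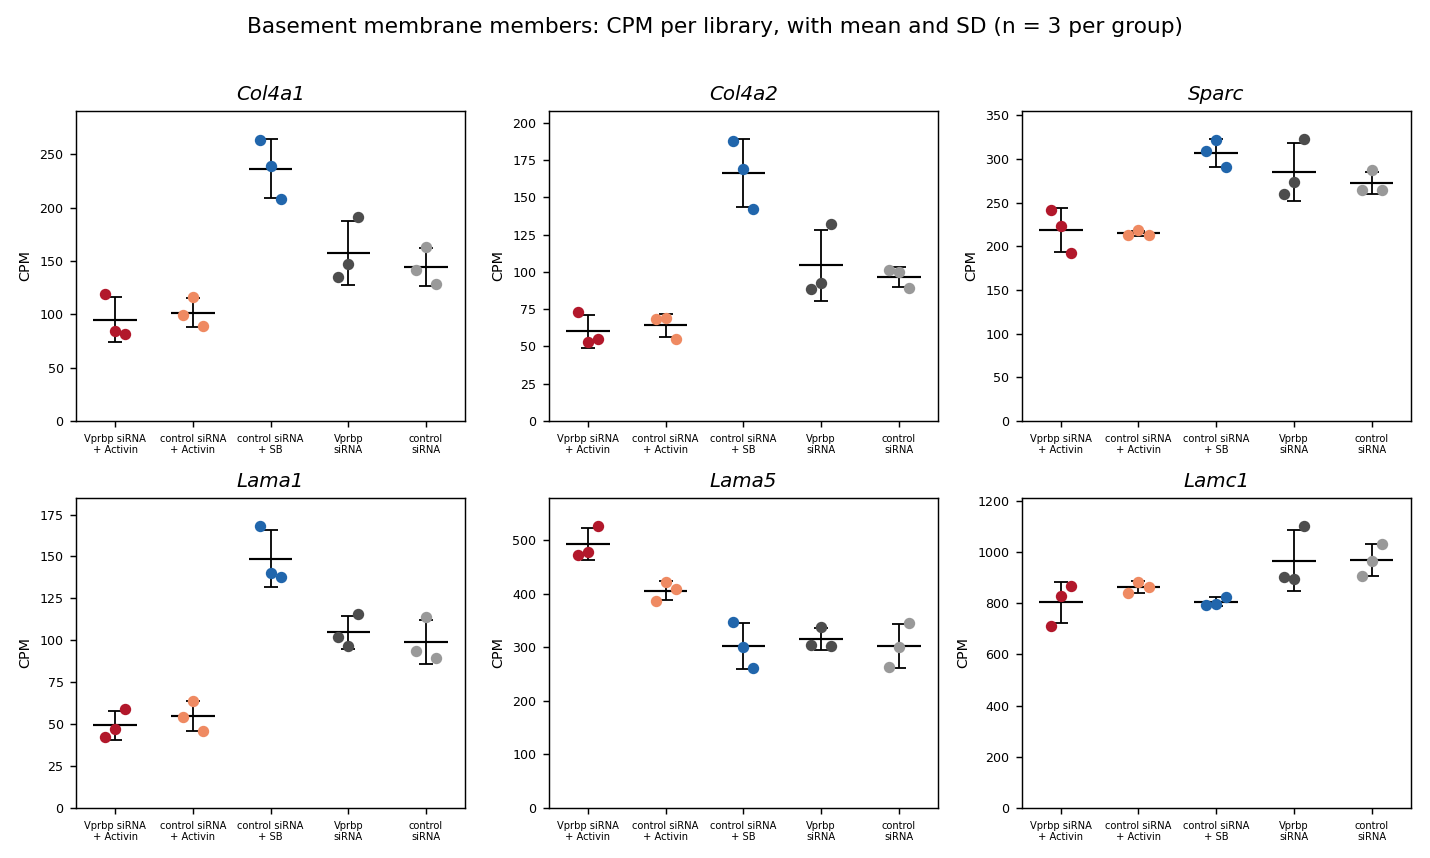
CPM per library for 6 basement membrane genes, with mean and SD (n = 3 per group). For Col4a1, Col4a2 and Lama1 the SB libraries lie above and the Activin libraries below control siRNA cells, and Lama5 had 386 CPM or more in all 6 Activin libraries and 347 CPM or less in the others.

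Endoderm of the early embryo is a strong source of laminin-111, collagen IV and SPARC, so its markers are given beside these genes. Of 10 parietal and visceral endoderm markers, 9 were tested, and 2 were higher with SB: Plat by 1.55 (SE 0.17) and Sox7 by 0.92 (SE 0.19). That was 22.2% of those tested, close to the 22.6% of all genes called with SB. Their summed level was 123 to 142 CPM with SB, against 105 to 118 CPM in control siRNA cells, and Afp was at 0 in both groups. The defining factors Gata4 and Gata6 averaged 22.3 and 14.6 CPM with SB, against 22.9 and 20.3 CPM in control siRNA cells. With Activin in control siRNA cells the sum was 138 to 169 CPM, against the same 105 to 118 CPM, with Dab2, Ttr and Srgn higher and Plat lower. The share called was 44.4%, where 4.83% of all genes were called. In Vprbp siRNA cells the sum was 132 to 179 CPM with Activin, against 102 to 123 CPM without it. Sox17 there had 270 counts in Activin replicate 1, against 42 and 37 in replicates 2 and 3. In control siRNA cells the sum was higher with either agent, but the genes called differed, and Plat went in opposite directions. Dab2 had the largest counts of these markers, at 909, 1019 and 1111 with Activin, 683, 650 and 638 with SB, and 580, 615 and 434 in control siRNA libraries. Plat had 37, 38 and 35 counts with Activin, 333, 236 and 267 with SB, and 112, 100 and 77 in control siRNA libraries. The part of endoderm cells in these results was not tested.

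Fibronectin, the most abundant of the genes, was not called with either agent against control siRNA cells when all libraries were used. It had 1994, 1966 and 1901 CPM with Activin in control siRNA cells, 2397, 2459 and 2457 CPM with SB, and 2039, 2188 and 2746 CPM in control siRNA cells. The control libraries overlapped the SB libraries but lay above those with Activin, and the log2 fold changes were -0.25 with Activin (SE 0.09, adjusted p = 0.137) and 0.07 with SB (SE 0.09, adjusted p = 0.666). Control siRNA replicate 3, which lay apart above, held the highest Fn1 level of all 15 libraries. Without the 3 libraries that lay apart, Fn1 was called with SB, at 0.21 (adjusted p = 0.00937), and without control siRNA replicate 1 it was called with Activin, at -0.34 (adjusted p = 0.0443). Between Activin and SB themselves Fn1 was called, at -0.32 (SE 0.09, adjusted p = 0.0125). The fibrillins, which form the microfibrils of elastic tissue, were higher with SB. Fbn2, the form made mostly in embryos, had 33.0, 15.8 and 19.9 CPM with SB, against 6.04, 5.44 and 8.91 CPM in control siRNA cells, a log2 fold change of 1.76 (SE 0.30, adjusted p = 0.000843). Fbn1 had 15.1, 11.5 and 11.1 CPM with SB, against 6.31, 8.48 and 9.81 CPM, a log2 fold change of 0.62 (SE 0.16, adjusted p = 0.00914). The Fbn1 call was lost without SB replicate 1 or control siRNA replicate 1, with an adjusted p of at most 0.0786, and 20.3% of the exon length of Fbn1 is overlapped by Gm9913 on the opposite strand, so without a stated strand setting their reads cannot be told apart.

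All 3 tested Fraser complex genes were higher with SB, where 11.2% of all genes tested were. None was called with Activin, where 4.83% of all genes were called in control siRNA cells and 6.12% in Vprbp siRNA cells. At such shares, no call among 3 genes says little. Frem2, a transmembrane member, had 221, 199 and 188 CPM with SB, against 61.6, 60.8 and 78.1 CPM in control siRNA cells, 3.03-fold higher (log2 1.60, SE 0.09, adjusted p = 3.27e-10). It had the smallest p of the 77 genes with SB. Fras1, whose loss causes Fraser syndrome in people, had 28.9, 17.4 and 18.8 CPM with SB, against 7.19, 6.81 and 10.8 CPM, a log2 fold change of 1.39 (SE 0.21, adjusted p = 9.61e-05). Frem1, a secreted member, had 5.09, 3.18 and 6.01 CPM with SB, against 0.95, 1.45 and 0.899 CPM, a log2 fold change of 2.11 (SE 0.49, adjusted p = 0.00532). The SB libraries lay above every control library for each of them. These 3 calls held under every alternative run. Frem2 lies at chr3:53513938-53658593. With Activin in control siRNA cells, Frem2 showed -0.28 (SE 0.09, adjusted p = 0.0948) and Fras1 -0.14 (SE 0.23, adjusted p = 0.783). Frem1 in Vprbp siRNA cells with Activin rested on 1 library, at 4.71, 1.08 and 1.25 CPM, against 1.76, 0.676 and 1.83 CPM without it.

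Collagen VI, which forms beaded filaments around cells, split by chain with SB. Col6a1 had 7.70, 6.51 and 4.65 CPM with SB, against 1.83, 1.67 and 1.72 CPM in control siRNA cells, a log2 fold change of 1.85 (SE 0.23, adjusted p = 7.44e-06). Col6a2 had 17.3, 14.6 and 12.9 CPM with SB, against 7.12, 6.52 and 8.84 CPM, a log2 fold change of 0.99 (SE 0.16, adjusted p = 0.000155). Both chains lie next to each other on chromosome 10, 85162 bases apart, and both were above every control library with SB. Of the 3 chains that can replace Col6a3, the usual partner of both, and that are encoded side by side on chromosome 9, Col6a4 and Col6a5 fell, and Col6a6 was not called (-0.87, SE 0.34, adjusted p = 0.0724). Col6a5 had 2.54, 3.83 and 2.36 CPM with SB, against 9.63, 12.5 and 8.91 CPM, and fell by 1.83 (SE 0.24, adjusted p = 1.31e-05). Col6a4 had 1.82, 1.95 and 2.00 CPM with SB, against 5.29, 6.38 and 4.79 CPM, and fell by 1.51 (SE 0.27, adjusted p = 0.00042). All 4 calls held under every alternative run, and Col6a3 was too low to test. Per length, the ratio of Col6a2 to Col6a5 was 8.31 ± 2.32 with SB, against 1.16 ± 0.37 in control siRNA cells, and that of Col6a1 to Col6a5 was 5.07 ± 1.60 with SB, against 0.39 ± 0.08 in control siRNA cells (SD, n = 3 each). With Activin only Col6a2 in Vprbp siRNA cells was called, falling by 0.64 (SE 0.18, adjusted p = 0.0363), at 4.39, 5.13 and 6.04 CPM against 7.56, 7.96 and 8.77 CPM. That call was lost in 7 alternatives, among them without Vprbp siRNA + Activin replicate 1 or 2 or any 1 of the 3 Vprbp siRNA libraries and without the 3 libraries that lay apart, with an adjusted p of at most 0.207. Between Activin and SB, Col6a6, the neighbour of Col6a5, was 1.07 higher with Activin (SE 0.34, adjusted p = 0.0162), which did not hold without control siRNA + Activin replicate 1 or SB replicate 1 or 2, with an adjusted p of at most 0.0819.

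**Figure D4:**
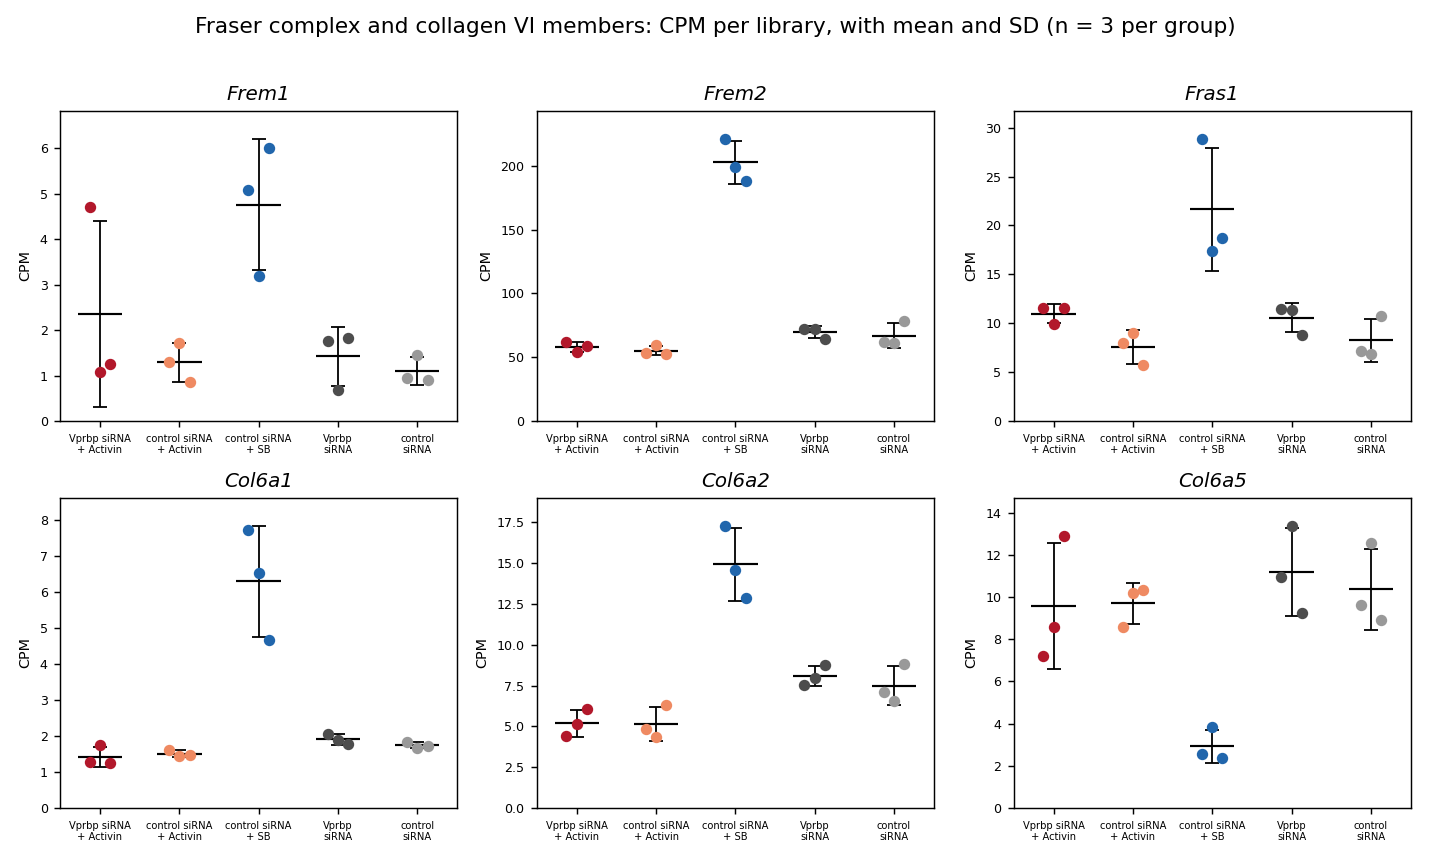
CPM per library for 3 Fraser complex genes and 3 collagen VI chains, with mean and SD (n = 3 per group). The SB libraries lie above every control siRNA library for Frem1, Frem2, Fras1, Col6a1 and Col6a2 and below every one for Col6a5.

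Of the fibrillar collagens, all 11 were tested, with 3 higher and 2 lower with SB (45.5%, where 22.6% of all genes were called). Col1a1, the main chain of type I collagen in connective tissue, had 13.4, 13.5 and 8.31 CPM with SB, against 18.5, 21.5 and 30.7 CPM in control siRNA cells, and fell by 1.00 (SE 0.19, adjusted p = 0.00114). Its partner Col1a2 was not called, at -0.27 with SB (adjusted p = 0.578), with 4.87, 6.66 and 5.30 CPM inside the control range of 3.66 to 9.36 CPM. With Activin in control siRNA cells Col1a2 showed -1.06 (SE 0.32, adjusted p = 0.0658), and was called by DESeq2 (0.0162) and without control siRNA replicate 1 (0.00745). Col3a1, which accompanies type I collagen, had 2.22, 1.54 and 0.793 CPM with Activin in control siRNA cells, 1.74, 2.24 and 1.86 CPM with SB, and 4.68, 5.29 and 5.24 CPM in control siRNA cells. It was below every control library with either agent, and fell by 1.76 with Activin (SE 0.42, adjusted p = 0.0251) and by 1.37 with SB (SE 0.40, adjusted p = 0.0194). The Activin call was lost without control siRNA + Activin replicate 2 or 3 or control siRNA replicate 2 or 3, at an adjusted p of at most 0.122, and the SB call without SB replicate 1 or 3 or control siRNA replicate 2, at most 0.0751. Col3a1 was the only gene called in the same direction with both agents in control siRNA cells, in a comparison pair that shares its control libraries. With Activin in Vprbp siRNA cells Col3a1 was called only without Vprbp siRNA + Activin replicate 1 (-1.54, adjusted p = 0.021) and with the 3 apart libraries left out (-1.81, adjusted p = 0.00212). Col5a1, which regulates fibril thickness, had 54.6, 47.7 and 43.5 CPM with SB, against 31.5, 35.3 and 38.7 CPM, and was 0.47 higher (SE 0.10, adjusted p = 0.00156). Col27a1, a fibrillar collagen of developing cartilage, had 6.32, 5.86 and 4.51 CPM with SB, against 2.17, 3.19 and 1.95 CPM, and was 1.19 higher (SE 0.24, adjusted p = 0.00105).

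Among the 27 other collagens 19 were tested, with 5 higher and 4 lower with SB (47.4%, where 22.6% of all genes were called). None was called with Activin in control siRNA cells. In Vprbp siRNA cells 1, Col6a2, was called with Activin (5.26%, where 6.12% of all genes were called). Of the transmembrane collagens called with SB, Col13a1 and Col17a1 fell and Col23a1 and Col25a1 were higher. Col13a1, found at adhesion sites, had 11.7, 10.4 and 9.95 CPM with SB, against 22.7, 18.0 and 15.1 CPM in control siRNA cells, and fell by 0.80 (SE 0.15, adjusted p = 0.000436). Col17a1, the hemidesmosome collagen, fell by 0.81 (SE 0.24, adjusted p = 0.0198), at 3.20, 2.89 and 3.72 CPM against 6.17, 5.36 and 5.69 CPM. Col23a1, also transmembrane, was instead 0.86 higher with SB (SE 0.28, adjusted p = 0.0304), at 4.22, 3.69 and 3.36 CPM against 2.65, 1.96 and 1.57 CPM. The Col17a1 call was lost without SB replicate 1 or 2 or control siRNA replicate 1, at an adjusted p of at most 0.0809, and that of Col23a1 without SB replicate 1 or 2 or control siRNA replicate 2 or 3, at most 0.107. Col25a1, a collagen found in neurons and chosen after its values were seen, was 1.85 higher (SE 0.49, adjusted p = 0.00903), at 2.11, 1.30 and 1.86 CPM against 0.136, 0.58 and 0.749 CPM, a call lost without control siRNA replicate 1 (at most 0.0585). Col18a1, the most abundant collagen per length, was 0.18 higher (SE 0.06, adjusted p = 0.0418), at 808, 813 and 759 CPM against 698, 733 and 673 CPM. That call was lost without SB replicate 1 or 2 or control siRNA replicate 1 or 3 (at most 0.127). It was also lost without the 3 libraries that lay apart (0.0603) and with only the groups compared.

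Fibroblasts and mesenchyme are the usual source of type I, III, V and VI collagens, so their markers are given here. Of 10 markers other than the genes described here, 8 were tested, and 1, Acta2, was higher with SB (0.89, SE 0.29), with none lower. The share called was 12.5%, where 22.6% of all genes were called. Their summed level was 78.1 to 94.8 CPM with SB, against 65.3 to 72.4 CPM in control siRNA cells, and Fap was at 0 in both groups. Tagln had 363, 481 and 381 counts with SB, against 210, 277 and 286, and Acta2 had 123, 269 and 161, against 95, 100 and 105. Pdgfrb had 184, 211 and 228 counts, against 267, 233 and 212, and Thy1 had 169, 120 and 128, against 164, 178 and 193. Of the 8 tested, 5 had a positive log2 fold change with SB. With Activin in control siRNA cells the sum was 64.6 to 66.7 CPM and no marker was called. Of 6 endothelial markers 5 were tested, and Pecam1 and Tie1 fell with SB (40% called, where 22.6% of all genes were). Their sum was 78.1 to 83.7 CPM with SB, against 115 to 150 CPM in control siRNA cells. Pecam1 made up most of this sum, with 1599, 1626 and 1922 counts in control siRNA libraries, where no other endothelial marker exceeded 62 counts. Of 6 blood markers 2 were tested and none was called with SB, and Hba-a1 and Hbb-bt were at 0 in every library. Of 5 muscle markers 3 were tested, and Myh6 fell with SB (33.3% called). The part of other cell types in the collagen results was not tested.

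Integrins divided into subunits that were higher with SB and subunits that were lower. Itga3, the alpha subunit of the laminin-332 and laminin-511 receptor, had the smallest p of the integrins in both contrasts: 152, 151 and 164 CPM with Activin in control siRNA cells, 359, 373 and 311 CPM with SB, and 201, 219 and 216 CPM in control siRNA cells. It fell by 0.44 with Activin (SE 0.07, adjusted p = 0.00115) and was 0.71 higher with SB (SE 0.07, adjusted p = 4.08e-07). In Vprbp siRNA cells it had 142, 165 and 151 CPM with Activin, against 196, 204 and 209 CPM without it, and fell by 0.41 (SE 0.07, adjusted p = 0.00138). None of the groups compared overlapped, and these 3 calls held under every alternative run. Itga3 lies at chr11:95044475-95076844, 91433 bases from Col1a1, which fell with SB.

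Itga7, a laminin receptor subunit best known from muscle, had 10.3, 9.26 and 7.02 CPM with SB, against 2.99, 2.97 and 4.12 CPM in control siRNA cells, a log2 fold change of 1.40 (SE 0.20, adjusted p = 4.12e-05). With Activin in Vprbp siRNA cells it had 1.12, 1.52 and 1.53 CPM, against 2.75, 3.01 and 3.73 CPM, and fell by 1.18 (SE 0.25, adjusted p = 0.0069), a call lost without Vprbp siRNA replicate 3 and without the 3 libraries that lay apart, with an adjusted p of at most 0.0816. Itgb3, a beta subunit of vitronectin and fibronectin receptors, had 17.9, 21.9 and 21.7 CPM with SB, against 12.2, 13.6 and 12.5 CPM, and was 0.68 higher (SE 0.12, adjusted p = 0.000368). With Activin in Vprbp siRNA cells Itgb3 had 8.94, 9.10 and 7.98 CPM, against 12.4, 16.3 and 15.6 CPM, and fell by 0.77 (SE 0.13, adjusted p = 0.00114). Itga8, a nephronectin receptor subunit, was 0.72 higher with SB (SE 0.22, adjusted p = 0.0223), at 6.40, 6.80 and 8.23 CPM against 3.66, 5.44 and 3.89 CPM. That call was lost without SB replicate 3 or control siRNA replicate 1 or 3, at an adjusted p of at most 0.105.

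Itgam, a subunit known from myeloid cells, was lower with Activin and higher with SB: 6.50, 7.50 and 6.61 CPM with Activin, 14.0, 14.8 and 15.8 CPM with SB, and 11.1, 9.64 and 11.2 CPM in control siRNA cells. The log2 fold changes were -0.64 with Activin (SE 0.16, adjusted p = 0.0248) and 0.48 with SB (SE 0.15, adjusted p = 0.0215), and in Vprbp siRNA cells Itgam fell by 0.78 with Activin (SE 0.16, adjusted p = 0.00561). The calls were lost without control siRNA + Activin replicate 1 or 3 or control siRNA replicate 1 or 3 (at most 0.101), without SB replicate 2 or 3 or control siRNA replicate 2 (at most 0.0958), and, for Vprbp siRNA cells, without Vprbp siRNA replicate 3, without the 3 libraries that lay apart or with only the groups compared (at most 0.0927), each given as the highest adjusted p. In the GENCODE annotation 70.0% of the exon length of Itgam is shared with Gm49368 on the same strand, so the level of Itgam itself is uncertain.

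Other subunits fell with SB. Itga6, which pairs with Itgb1 or Itgb4 to bind laminins, had 187, 213 and 201 CPM with SB, against 265, 262 and 286 CPM in control siRNA cells, and fell by 0.44 (SE 0.07, adjusted p = 0.000189). With Activin it showed -0.07 in control siRNA cells (SE 0.07, adjusted p = 0.629) and fell by 0.25 in Vprbp siRNA cells (SE 0.07, adjusted p = 0.0457), at 214, 225 and 243 CPM against 252, 259 and 302 CPM. The call in Vprbp siRNA cells was lost in 7 alternatives, among them without Vprbp siRNA + Activin replicate 1 or 2 or Vprbp siRNA replicate 1 or 3 and without the 3 libraries that lay apart, with an adjusted p of at most 0.394. Itgb5 had 59.7, 55.3 and 62.4 CPM with SB, against 74.6, 71.2 and 79.3 CPM, and fell by 0.34 (SE 0.07, adjusted p = 0.00172). Itgb7, a leukocyte subunit, had 8.07, 7.89 and 9.81 CPM with SB, against 16.6, 12.5 and 15.1 CPM, and fell by 0.78 (SE 0.14, adjusted p = 0.000357). The shared subunit Itgb1 was not called, at 343 to 358 CPM with SB against 313 to 358 CPM in control siRNA cells, with log2 fold changes of 0.06 with SB (SE 0.06, adjusted p = 0.576) and 0.13 with Activin (SE 0.06, adjusted p = 0.241). The fibronectin receptor subunits Itga5 and Itgav were not called with SB (-0.11 and 0.11) or with Activin in control siRNA cells (-0.41 and 0.04) when all libraries were used in edgeR's fit. Itga5 was called with Activin there by DESeq2 (-0.41, adjusted p = 0.0355) and with the 3 apart libraries left out (-0.21, adjusted p = 0.0413). Of 15 alpha subunits tested out of 18, 4 were higher and 1 lower with SB (33.3%), and of 7 beta subunits tested out of 8, 1 was higher and 2 lower (42.9%), where 22.6% of all genes were called. Activin gave 2 lower alpha subunits (13.3%) and no beta subunit in control siRNA cells, where 4.83% of all genes were called. In Vprbp siRNA cells it gave 4 lower alpha subunits (26.7%) and 1 lower beta subunit (14.3%), where 6.12% of all genes were called.

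**Figure D5:**
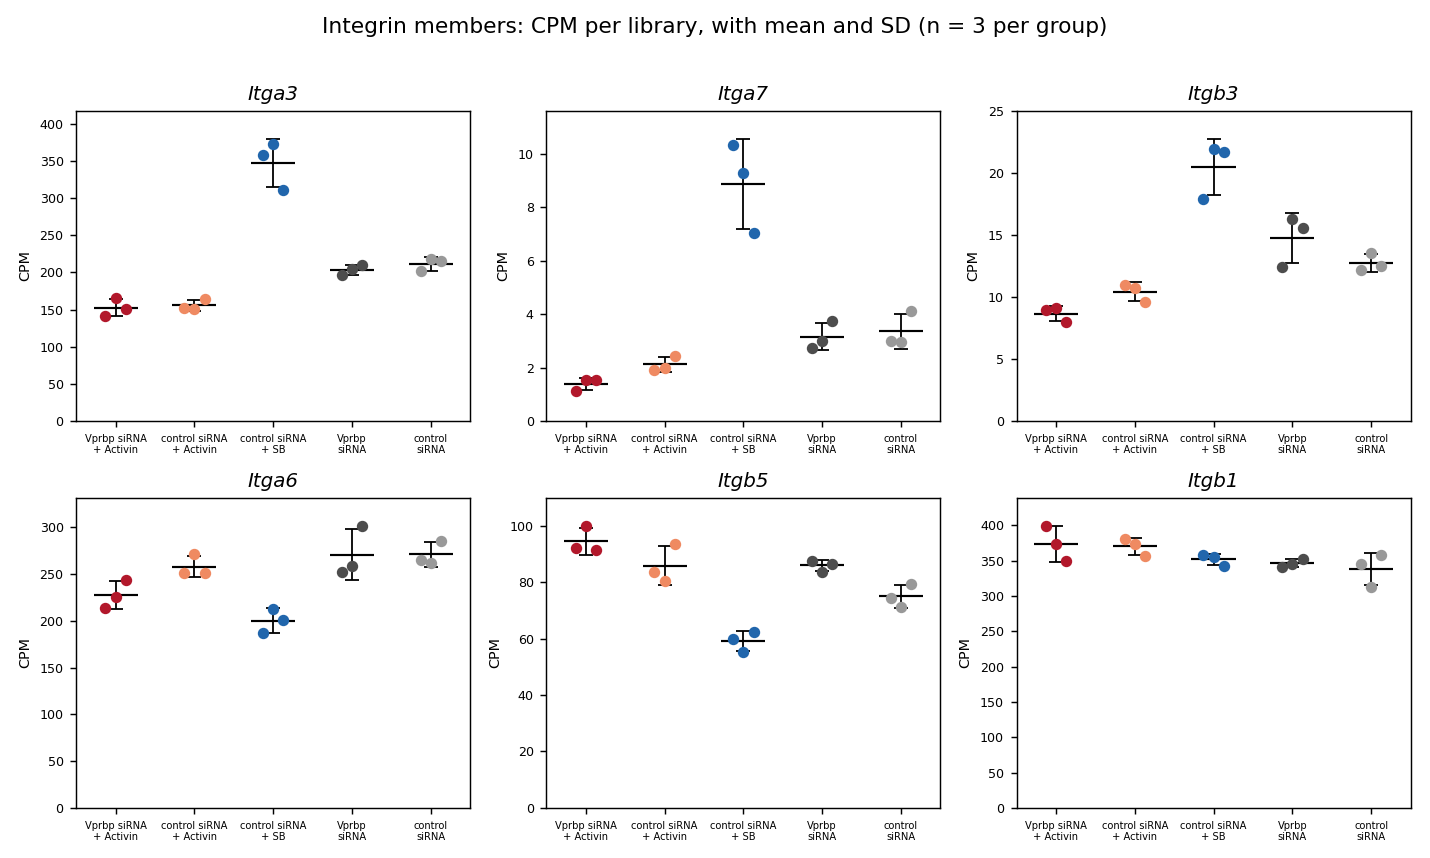
CPM per library for 6 integrin subunits, with mean and SD (n = 3 per group). Itga3, Itga7 and Itgb3 are highest with SB, Itga6 and Itgb5 are lowest with SB, and Itgb1 stays between 313 and 399 CPM in all 15 libraries.

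Set directly against SB, Activin in control siRNA cells left 12 of the 77 genes higher and 35 lower, where 38% of all genes tested were called (19% in each direction). The lower genes included all 3 Fraser genes, Fbn2 at -2.07 (SE 0.32), Col6a1 at -2.06 (SE 0.24), Itga7 at -2.05 (SE 0.22), Lama1 at -1.45 (SE 0.14), Col4a2 at -1.38 (SE 0.17), Itga8 at -1.36 (SE 0.24) and Itga3 at -1.16 (SE 0.07). The higher genes included Col6a5 at 1.73 (SE 0.24), Lama3 at 1.69 (SE 0.19), Col13a1 at 0.85, Itgb7 at 0.75, Col8a2 at 0.68, Itgb5 at 0.54 and Lama5 at 0.42 (SE 0.10). Nid2, Fn1 and Nid1 were among the genes called here although neither agent moved them past the test against control siRNA cells. The others were Col11a1, Col12a1, Col16a1, Col20a1, Col22a1, Col26a1, Col6a6, Col8a2, Itga9, Itga11, Itgb8 and Lama2. The Nid1 call was lost without control siRNA + Activin replicate 2 or 3 or SB replicate 2 or 3, with an adjusted p of at most 0.11. The comparison of Activin in Vprbp siRNA cells shares no library with that of SB in control siRNA cells: 10 genes were called in both, and 8 of these went in opposite directions. Of all genes tested, 413 were called in both and 78.2% of these went in opposite directions, a share close to that of the matrix and integrin genes.

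Vprbp siRNA itself gave no called gene among the 77, with or without Activin, in edgeR's quasi-likelihood test. Of all genes, 0.0411% were called in each comparison (0.0342% higher and 0.00685% lower). Vprbp RNA itself fell only in part, so these results do not speak to its loss. Without Activin it had 1585, 1752 and 1741 counts in Vprbp siRNA libraries, against 2555, 2302 and 2307 in control siRNA libraries. Without Activin, 6 of the 77 had an unadjusted p below 0.05, as did 1191 of all 14600 genes tested, and DESeq2 also called 0 of the 77. With Activin, 13 of the 77 had an unadjusted p below 0.05, as did 1532 of all 14600 genes tested. DESeq2 called 1 of the 77 there, Col2a1, the collagen of cartilage, named after its values were seen. Col2a1 had 38.9, 32.8 and 34.3 CPM in Vprbp siRNA cells with Activin, against 24.2, 23.9 and 26.7 CPM in control siRNA cells with Activin, without overlap. Its log2 difference was 0.50 (SE 0.12, adjusted p = 0.152), and the adjusted p was 0.0488 with a replicate block and 0.0364 by DESeq2. Of the 14 genes named whatever their change, the differences ran between -0.21 and 0.45 with Activin and between -0.74 and 0.13 without it, with smallest adjusted p values of 0.392 and 0.646.

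The question of whether Vprbp siRNA altered the response to Activin was tested as the difference of both responses. No gene of the 77 and none of all 14600 passed (percent called 0), and DESeq2 called 0 of the 77. An unadjusted p below 0.05 was found for 2 of the 77 and for 517 of all 14600 genes tested. The smallest p in edgeR's quasi-likelihood fit was that of Itgb3, at an adjusted p of 0.999. Thus the calls of Itgb3, Itga7, Col4a1 and Col4a2 in Vprbp siRNA cells alone are not shown to differ from control siRNA cells. The 5 genes called with Activin in both backgrounds, Lama1, Lama5, Itga3, Itgam and Sparc, went in the same direction in each, in libraries that the backgrounds do not share, as did all 386 genes of the whole table called in both. The number called with Activin depended on single libraries: in control siRNA cells 7 became 4, 3 or 2 without Activin replicate 1, 2 or 3, and 3 or 4 without control siRNA replicate 2 or 3. With Vprbp siRNA, 14 became 7 without Activin replicate 2 and 5 without Vprbp siRNA replicate 3.

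Genes that process, cut or bind the matrix were counted from lists written for this purpose. With SB, where 22.6% of all genes were called, the share called was 55% of the proteases and inhibitors, 59.1% of the adhesion adaptors, 17.4% of the collagen processing genes and 21.7% of the other glycoproteins, the last 2 at or below that background. Of 20 tested matrix proteases and inhibitors, 8 were higher and 3 lower, with a median log2 fold change of 0.18 against 0.00 for all genes: the plasminogen activator Plat and the inhibitor Timp3 (1.02, SE 0.12) were higher, and Mmp9 (-1.11, SE 0.17) and Adam19 (-0.62, SE 0.09) lower. Of 22 integrin adhesion adaptors, 9 were higher and 4 lower, including Parva at 1.25 (SE 0.09), Zyx at 0.57 (SE 0.09) and Pxn at 0.45 (SE 0.06), which link integrins to actin, and Actn4 at -0.37 (SE 0.06). Of 23 genes for collagen processing and crosslinking, 2 were higher and 2 lower: Loxl3 at 0.99 (SE 0.19), Bmp1 at 0.49 (SE 0.11), Lox at -2.20 (SE 0.75) and P4ha1 at -0.64 (SE 0.21). Of 23 other matrix glycoproteins, 3 were higher and 2 lower, with Smoc2 at 2.75 (SE 0.62), Efemp2 at 0.70 and Tnc at -1.55 (SE 0.35). With Activin in control siRNA cells these lists gave 1 higher and 1 lower protease gene, 2 higher and 1 lower adaptor, and no call in the other lists. These were 10% of the protease list and 13.6% of the adaptor list, where 4.83% of all genes were called. With Vprbp siRNA, Activin gave 2 lower protease genes, 3 higher and 1 lower adaptor, 1 higher and 1 lower processing gene and 1 higher glycoprotein. In that order these were 10%, 18.2%, 8.7% and 4.35% of the lists, where 6.12% of all genes were called. The adaptor Fermt1, which activates integrins, was 0.80 higher in Vprbp siRNA cells and 0.75 higher in control siRNA cells with Activin, and Tln1 fell by 0.30 and by 0.26. None of the lists held a called gene in any Vprbp siRNA comparison.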

How the data were processed

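RNA-seq of 15 libraries was analysed from the table of fragment counts per gene that the authors deposited, which holds whole-number counts that are not normalized. Per the submitters' processing notes, HTSeq 0.6.1p1 and mm10 were used (aligner, annotation and strandedness: not given in the sources used here). The 5 HTSeq tally rows, which name no gene, were left out; per library, 27.7% to 29.5% of fragments were tallied as not aligned and 10.3% to 16% as in no feature.

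Genes were kept by filterByExpr (minimum count 10), scaled by TMM (factors 0.985 to 1.02) and tested with edgeR 4.0.16 (limma 3.58.1, R 4.3.3) by the quasi-likelihood test, 1 mean per group and 1 fit for the 5 groups, with Benjamini-Hochberg adjustment over all genes tested. SE is the size of the log2 fold change over the square root of the F statistic. Libraries within a group differed beyond sampling noise (chi-square per degree of freedom 2.82 to 16.7), so none was counted as a repeat. Levels per length divide CPM by GENCODE union exon length on GRCm38, and promoter sequences are from RefSeq for GRCm38.p6.

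The genes and all lists were chosen with earlier results of these data known. The text names, for each comparison, up to 10 largest rises and 10 largest falls that were called and had a mean log2 CPM no lower than 1, always 14 genes (Fn1, Sparc, Col4a1, Col4a2, Lama1, Lamb1, Lamc1, Itgb1, Itga5, Itga6, Itgav, Col1a1, Col1a2, Col3a1), and up to 4 called genes per list; others, such as Fbn1, Itga8, Nid2, Hspg2, Col5a1, Col18a1, Col25a1, Col4a5, Col2a1 and Dcn, were picked after their values were seen. Alternatives were RLE size factors, other count filters, DESeq2 1.42.0, a replicate block, only the groups compared, and leaving out libraries. Same-numbered libraries of Vprbp siRNA and control siRNA cells without Activin deviated together (correlations 0.12, 0.20 and 0.37). In the other comparisons they did not all do so. The main fit used no pairing, and the numbers entered only the alternative run with a replicate block.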

Additional observations from a re-analysis of the deposited data

How the results depend on the processing

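No called gene reversed under any alternative run: of 101 called results, 64 kept their call under every alternative and 37 lost it under at least 1. The number of called genes moved with the model in 2 comparisons. With Activin, Vprbp siRNA gave 1 called gene, Col2a1, under the replicate block, DESeq2 and the fit of only the groups compared, against 0. Activin in Vprbp siRNA cells gave 6 with only the groups compared, against 14. The replicate block changed no other call count by over 1.5 times (8 for Activin in control siRNA cells, 35 for SB, 48 for Activin against SB, 14 for Activin in Vprbp siRNA cells). Leaving out 1 library gave 2 to 9 for Activin in control siRNA cells, 5 to 13 for Activin in Vprbp siRNA cells, 28 to 31 for SB, 40 to 44 for Activin against SB, and 0 for the Vprbp siRNA comparisons. With the 3 libraries named above as apart left out together, a choice made after seeing the data, the counts were 10, 12 and 39 for Activin in control siRNA cells, Activin in Vprbp siRNA cells and SB.

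Reversals were of values that were not called, and not all of these were near 0. With RLE size factors, Col1a1 with Activin in control siRNA cells was -0.1931 and Col1a2 with SB was -0.2683. Both reversed without control siRNA replicate 3, as did Itga5 with SB. With 1 library left out, Lamb1 with Activin ran between -0.01513 and 0.05361 in control siRNA cells (-0.006053 without Activin replicate 2, -0.0131 without control replicate 3) and between -0.1372 and 4.613e-05 in Vprbp siRNA cells. Itgav with Activin in control siRNA cells ran between -0.0176 and 0.08889, and Col1a1 between -0.3465 and 0.04048. With SB, Fn1 ran between -0.01854 and 0.2056, Itga5 between -0.2034 and 0.08813, and Col1a2 between -0.5725 and 0.03637. With those 3 left out, the reversed values were -0.01315 for Lamb1 and 0.04114 for Col1a1 with Activin in control siRNA cells, 0.02504 for Itgav with Activin in Vprbp siRNA cells, and 0.08828 for Itga5 and 0.03842 for Col1a2 with SB. The cause was not tested. Genes under about 1 CPM rest on few counts per library at these depths.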

Other observations

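Dcn, which encodes the small collagen-binding proteoglycan decorin, was the gene with the largest called change with Activin in Vprbp siRNA cells, at a level too low for the naming rule. It had 1.44, 1.66 and 1.11 CPM with Activin in Vprbp siRNA cells, against 0.535, 0.451 and 0 CPM without it, and 0.459, 0.271 and 0.397 CPM in control siRNA cells with Activin. Its log2 fold change was 2.12 (SE 0.59, adjusted p = 0.0349). The call was lost by DESeq2, with only the groups compared and without Vprbp siRNA + Activin replicate 1 or 2 or Vprbp siRNA replicate 3. It was also lost without the 3 libraries that lay apart, and its adjusted p was at most 0.163.

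Replicate 3 of the control siRNA cells held the highest Fn1, Itga5 and Col1a1 levels of its group: Itga5 had 233.9 CPM there, against 162 CPM in each of replicates 1 and 2.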
